A study of Homo sapiens with 12 samples.

Results

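Messenger RNA of one clonal human cell line that overexpresses lamin B1, LmnB1_16, was compared with that of one clonal control line, mCherry_3. The libraries were chosen by the clone name in their titles, which gave 3 libraries of LmnB1_16 and 3 of mCherry_3 among the 12 of the series. Both clones were made from hTERT RPE-1, a retinal pigment epithelial line immortalised with telomerase. LmnB1_16 carries lamin B1 fused to the red fluorescent protein mCherry, and mCherry_3 carries mCherry alone. All cultures, controls included, received doxycycline at 0.05 ug/mL for 24 h and were grown with hygromycin. The remaining lines, mCherry_4 (mCherry alone) and LmnB1_6 (the fusion) with 3 libraries each, had the same treatment and are used here as reference levels. Each line is a single clone, so a difference between LmnB1_16 and mCherry_3 holds for these clones, and the construct and the clone cannot be told apart within this pair. The libraries are labelled biological replicates, but no label says how the cultures were separated, so p-values measure the spread between libraries of a clone.

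Lamin B1 is a filament protein of the nuclear lamina, the meshwork under the inner nuclear membrane. It is anchored there by a lipid tail, and the lamina holds much of the inactive, heterochromatic part of the genome at the nuclear edge. Loss of lamin B1 is a known mark of senescent cells, and the gene is also known to be transcribed more in dividing than in resting cells.

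Levels below are CPM, counts scaled to a common library size with TMM factors (edgeR's trimmed-mean normalization), and are compared between libraries of the same gene, never between genes. Differences are log2 fold changes of LmnB1_16 over mCherry_3 with their standard error (SE), and a gene was called at an adjusted p under 0.05 (edgeR's quasi-likelihood test, Benjamini-Hochberg over 15388 tested genes). Total estimated counts were 20.8 to 27.4 M in LmnB1_16 and 25.1 to 26.2 M in mCherry_3, and all pairs of libraries of a clone differed by more than sampling noise. LmnB1_16 replicate 2 and mCherry_3 replicate 1 were the farthest from the other libraries of their clones, and without them 6532 and 6114 genes were called, against 6838 with all libraries. Of the pigment epithelium markers, MITF, OTX2, PAX6, KRT8 and KRT18 were detected, while RPE65, TYR, DCT and TTR, markers of the mature or pigmented epithelium, had 0 counts in all 6 libraries. Other members of the list were detected too, with 1701 counts over the 6 libraries for RDH5, 985 for MERTK, 423 for PMEL, 384 for LRAT and 89 for BEST1. RLBP1 and TYRP1 had 1 and 3 counts. The summed level of this list was 1994 to 2065 CPM in mCherry_3 and 1604 to 1655 CPM in LmnB1_16. Most of its counts came from SLC16A3, KRT18 and KRT8 (83832, 79526 and 73614 over the 6 libraries), so the sum says little about its other members.

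LMNB1 (ENSG00000113368.12, chr5:126776623-126837020, plus strand, GRCh38) checks the labels. It stood at 77.2, 91.2 and 86.6 CPM in mCherry_3 and at 3330, 3666 and 3126 CPM in LmnB1_16, so the groups were far apart. The means were 84.98 ± 7.12 and 3374 ± 273 CPM (SD, n = 3 each), a log2 fold change of 5.31 (SE 0.08, adjusted p = 2.04e-16). The counts do not separate the construct from the gene on chromosome 5. The effective length that the quantifier gave LMNB1, the length open to fragments of the transcripts it used, was 2601 ± 32.5 bases in mCherry_3 and 1023 ± 11.7 bases in LmnB1_16 (SD, n = 3 each). On TPM, which divides by that length, LMNB1 was 50.6 ± 4.38 against 4861 ± 656 (SD, n = 3 each), and a count fit with effective lengths as offsets gave a log2 fold change of 6.66. The size of the LMNB1 difference therefore depends on the scale, while its direction does not. LMNB1 was 161 ± 7.3 CPM in mCherry_4 and 3976 ± 164 CPM in LmnB1_6 (SD, n = 3 each). The other lamin genes differed far less: LMNA, which encodes lamins A and C, had a log2 fold change of 0.32 (adjusted p = 0.000512) and LMNB2 one of 0.61 (adjusted p = 4.46e-07).

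A large part of the transcriptome differed between LmnB1_16 and mCherry_3, in both directions. Of 15388 tested genes 6838 were called (44.4%), with 3455 higher (22.5%) and 3383 lower (22%) in LmnB1_16. A change of at least 2-fold was found in 1388 of them (9.02%), 632 higher (4.11%) and 756 lower (4.91%). At 4-fold or more 174 genes were higher and 303 lower, so most called differences were small. The 3 LmnB1_16 libraries lay outside the range of the 3 mCherry_3 libraries for 52.8% of the tested genes. The median log2 fold change of all tested genes was 0.0045. Scaling by library size alone moved it to -0.093 and turned the split of calls to 2574 higher and 4528 lower. In limma on log2(TPM + 1) the split was 2097 higher and 3434 lower.

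**Figure D1:**
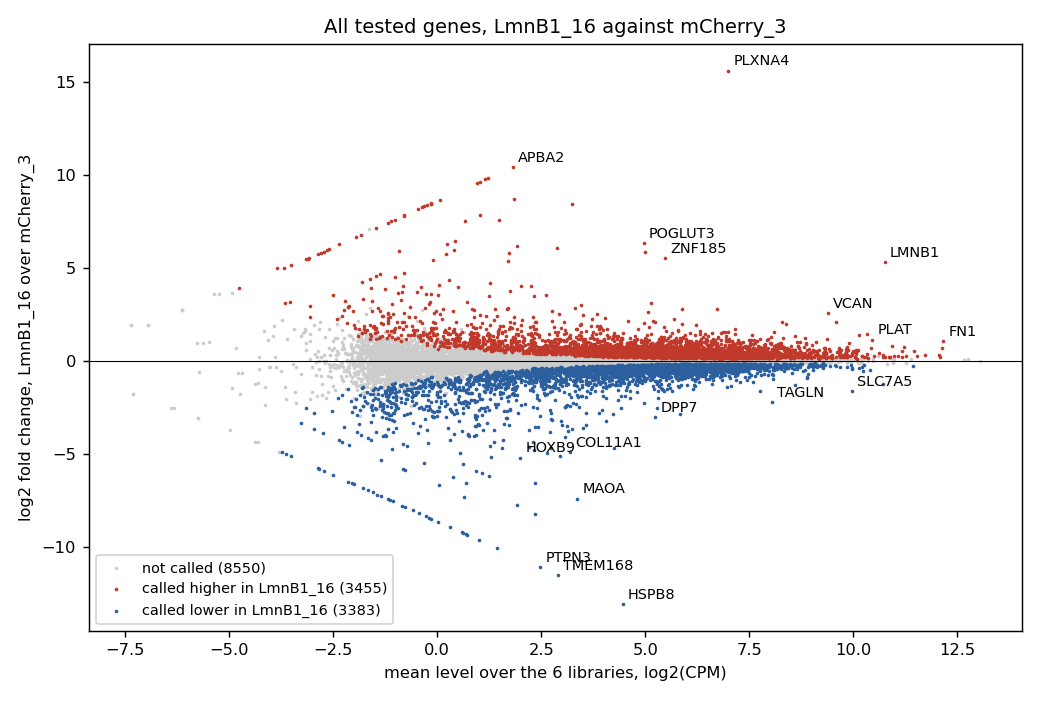
Each point is one of the tested genes, with its mean level over the 6 libraries in log2(CPM) on the x axis and its log2 fold change of LmnB1_16 over mCherry_3 on the y axis. Red points were called higher (3455), blue points called lower (3383) and grey points not called; diagonal rows of points at low levels are genes with 0 counts in one clone, whose fitted fold change depends on edgeR's prior count.

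The same fit shows how much the clones differ from each other. Against mCherry_4, the control clone left out of the pair, LmnB1_16 differed in 2411 genes (15.7%), 1026 higher (6.67%) and 1385 lower (9%). The mCherry clones differed from each other in 5752 genes (37.4%), 3067 higher (19.9%) and 2685 lower (17.4%) in mCherry_4. LmnB1_16 differed from LmnB1_6 in 5289 genes (34.4%), 2734 higher (17.8%) and 2555 lower (16.6%). Of the 632 genes at least 2-fold higher in LmnB1_16 than in mCherry_3, mCherry_4 was nearer to LmnB1_16 than to mCherry_3 for 432 (68.4%), and of the 756 at least 2-fold lower for 510 (67.5%). LmnB1_6 was nearer to LmnB1_16 for 404 (63.9%) and 480 (63.5%). The pair LmnB1_6 and mCherry_4 shares no library with LmnB1_16 and mCherry_3 and differed in 5727 genes (37.2%), 2635 higher (17.1%) and 3092 lower (20.1%) in LmnB1_6. Higher in both pairs were 856 genes, 24.8% of those higher in the first pair and 32.5% of those higher in the other. Lower in both were 1016 genes (30% and 32.9%), while 727 genes were higher in the first pair and lower in the other (21% and 23.5%) and 615 the reverse (18.2% and 23.3%).

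The plot of called shares by gene list shows all non-marker lists beside the shares of all tested genes. A list's count against mCherry_3 is read against 22.5% called higher and 22% called lower. Counts in other contrasts are read against the shares of those contrasts. These were 6.67% higher and 9% lower in LmnB1_16 against mCherry_4, and 17.8% and 16.6% against LmnB1_6. For mCherry_4 against mCherry_3 they were 19.9% and 17.4%.

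**Figure D2:**
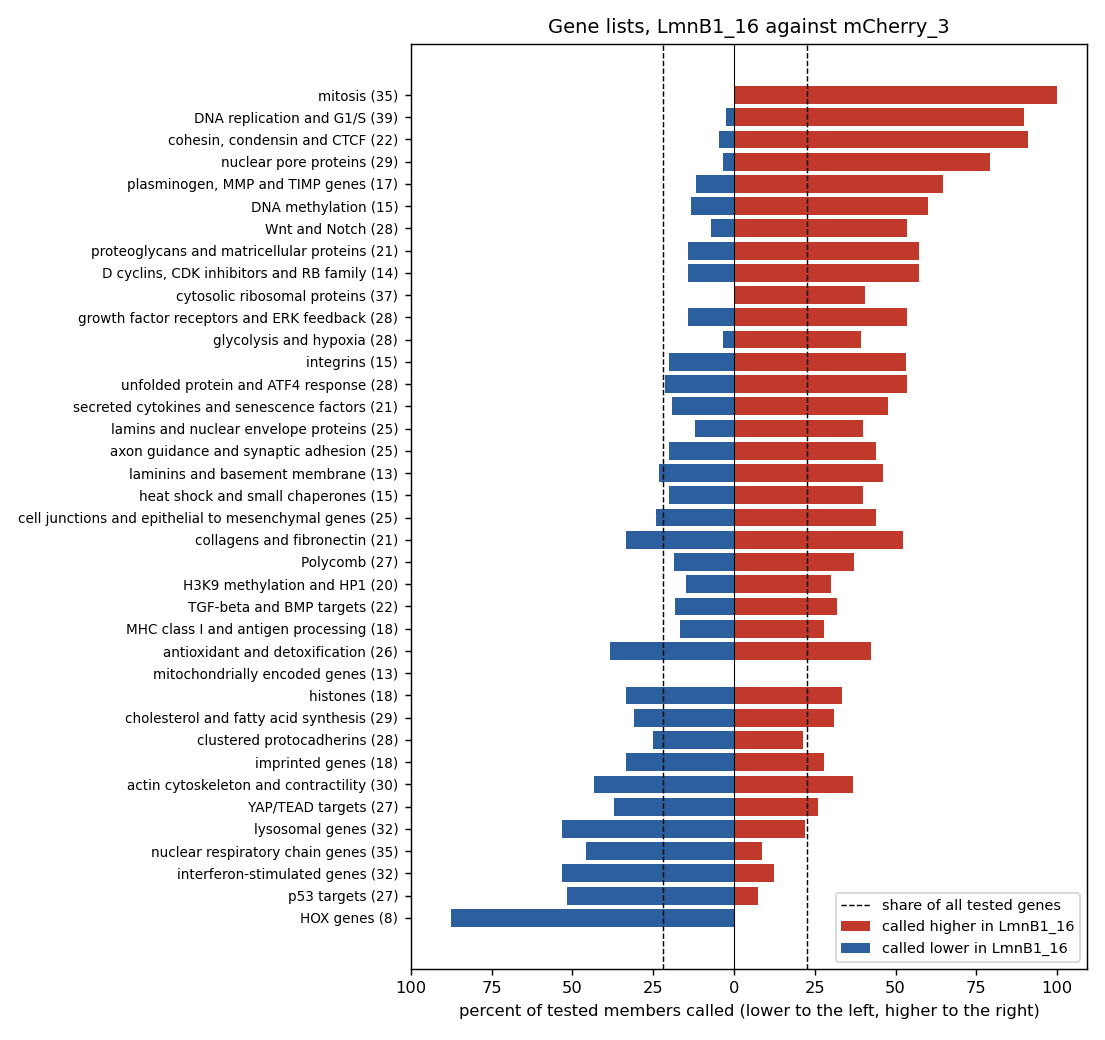
Bars give the percent of the tested members of each gene list (number tested in brackets) that were called higher (red, to the right) or lower (blue, to the left) in LmnB1_16; dashed lines mark the shares of all tested genes, 22.5% and 22%. All 35 mitosis genes were called higher and 7 of 8 HOX genes lower.

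Close to 0 in mCherry_3 (under 0.1 CPM on average) and at 5 CPM or more in every LmnB1_16 library were 5 genes, PLXNA4, APBA2, AS3MT, TNFRSF21 and the pseudogene ZNF542P. PLXNA4 (ENSG00000221866.9, chr7:132123332-132648688, minus strand), a plexin that acts with neuropilins as a receptor for class 3 semaphorins, had 0 counts in mCherry_3 and 242, 313 and 213 CPM in LmnB1_16. The 17133 counts over the 3 LmnB1_16 libraries put it at least 6541-fold higher, with a floor of 3 counts over the mCherry_3 libraries. PLXNA4 was at 0.028 ± 0.049 CPM in mCherry_4 and at 0 in LmnB1_6 (n = 3 each), so LmnB1_16 was the one clone of 4 with more than traces of it. Its nearest tested protein-coding neighbours did not share this pattern. PODXL was 231 ± 10.5 CPM in mCherry_3 and 186 ± 5.2 in LmnB1_16 (SD, n = 3 each, adjusted p = 0.000248), and CHCHD3 was 64.4 ± 3.57 and 66.98 ± 4.12 CPM (SD, n = 3 each, adjusted p = 0.542).

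APBA2, an adaptor that binds the amyloid precursor protein, had 0 counts in mCherry_3 and 7.3, 7.23 and 6.6 CPM in LmnB1_16, at least 180-fold higher, and was at 0.282 CPM in mCherry_4 and 20.1 CPM in LmnB1_6. TNFRSF21, the death receptor DR6, was at 0.036 to 0.074 CPM in mCherry_3 and 17.1 to 19.7 CPM in LmnB1_16. It was also present in mCherry_4 (12.6 CPM) and LmnB1_6 (8.32 CPM), as were AS3MT and ZNF542P, so mCherry_3 stood alone for these 3 genes.

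The reverse, close to 0 in LmnB1_16 and at 5 CPM or more in every mCherry_3 library, held for 5 genes, HSPB8, TMEM168, PTPN3, ALPK2 and IRF7. HSPB8 (ENSG00000152137.8, chr12:119178642-119221131, plus strand), a small heat shock protein that works with BAG3 in clearing misfolded proteins, was at 45.9, 43.5 and 42.3 CPM in mCherry_3 and had 0 counts in LmnB1_16, at least 1008-fold lower. It was at 16.5 ± 0.21 CPM in mCherry_4 and 0.011 ± 0.019 CPM in LmnB1_6 (n = 3 each), so both lamin B1 clones lacked more than traces of it and both mCherry clones had it. TMEM168 (ENSG00000146802.13, chr7:112762382-112790592, minus strand), which encodes a multi-pass membrane protein, was at 15.1, 14.2 and 15.4 CPM in mCherry_3 and had 0 counts in LmnB1_16, at least 342-fold lower.

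TMEM168 was at 12.7 ± 1.8 CPM in mCherry_4 and 13.6 ± 0.38 CPM in LmnB1_6 (n = 3 each), which left LmnB1_16 as the one clone without counts. Its neighbours on both sides, IFRD1 (log2 fold change 0.26, adjusted p = 0.165) and BMT2 (-0.20, adjusted p = 0.161), were not called. PTPN3, a tyrosine phosphatase of the cell cortex, showed the opposite arrangement, with 10.8 to 11.6 CPM in mCherry_3 and 0 counts in all 3 other clones. IRF7, the interferon regulatory factor that amplifies type I interferon, had 609 counts over the mCherry_3 libraries and 2 over the LmnB1_16 libraries, and was at 4.54 CPM in mCherry_4 and 6.26 CPM in LmnB1_6. ALPK2, an alpha kinase, had 824 and 2 counts, with 2.97 CPM in mCherry_4 and 34.9 CPM in LmnB1_6.

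**Figure D3:**
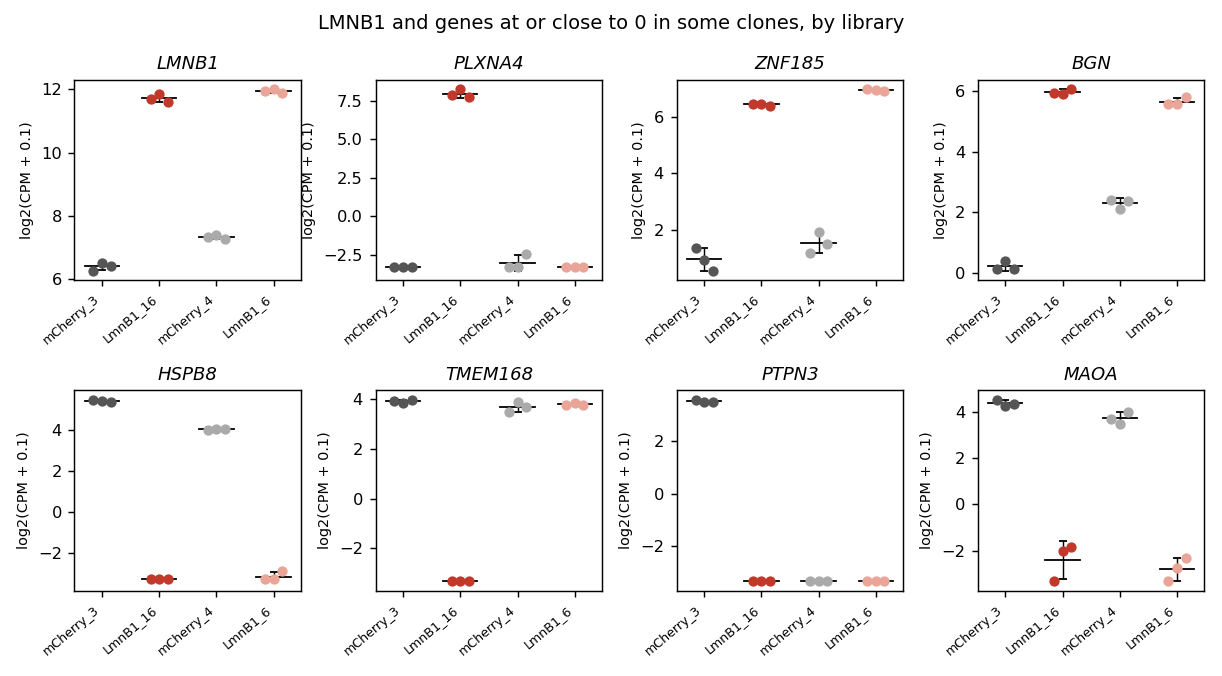
Levels in log2(CPM + 0.1) of LMNB1 and 7 genes at or close to 0 in some clones, for each of the 12 libraries (points), with the mean (line) and SD (bar) of each clone. LMNB1 was high in both lamin B1 clones, PLXNA4 in LmnB1_16 alone (213 to 313 CPM), and TMEM168 had 0 counts in LmnB1_16 alone.

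Other large differences split by which clones shared them. BGN, which encodes the matrix proteoglycan biglycan (chrX:153494939-153509554), was at 0.989, 1.22 and 0.999 CPM in mCherry_3 and 61.5, 59.9 and 67.7 CPM in LmnB1_16 (log2 fold change 5.87, SE 0.13, adjusted p = 2.17e-14). ZNF185, an actin-binding LIM protein also on chromosome X, was at 1.37 to 2.47 CPM in mCherry_3 and 84.8 to 88.5 CPM in LmnB1_16 (5.53, SE 0.14, adjusted p = 1.51e-13), and POGLUT3, an O-glucosyltransferase for EGF repeats, at 0.322 to 1.07 against 55.6 to 68.6 CPM (6.34, SE 0.20, adjusted p = 1.75e-12). In the other clones BGN was at 4.84 CPM in mCherry_4 and 50.4 in LmnB1_6, ZNF185 at 2.88 and 124, and POGLUT3 at 2.49 and 34.5, so for these 3 genes the lamin B1 clones were high and the mCherry clones low. MAOA, monoamine oxidase A, showed the reverse: 22.9, 18.8 and 19.8 CPM in mCherry_3, 0 to 0.183 CPM in LmnB1_16 (-7.39, SE 0.32, adjusted p = 8.13e-11), 13.2 CPM in mCherry_4 and 0.050 CPM in LmnB1_6. DPP7, a lysosomal dipeptidase, was likewise lower (66.5 to 67.3 CPM against 7.95 to 8.56 CPM; -3.03, SE 0.09, adjusted p = 4.6e-13), with 59.96 CPM in mCherry_4 and 8.24 CPM in LmnB1_6.

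Among genes at a mean of 50 CPM or more, those called higher with the smallest adjusted p after LMNB1 were HHIP, PTPRB, LTBP1, NRP1, NID2, RGS4 and SFRP1. HHIP, a decoy receptor for hedgehog ligands, was at 27.7, 26.2 and 27.01 CPM in mCherry_3 and 172, 212 and 169 CPM in LmnB1_16 (log2 fold change 2.77, SE 0.08, adjusted p = 1.1e-12). NRP1, neuropilin 1, a co-receptor for class 3 semaphorins and VEGF, was at 129, 132 and 137 CPM against 507.5, 595.5 and 497.9 CPM (2.01, SE 0.07, adjusted p = 3.42e-12). In mCherry_4 these genes too were above mCherry_3, HHIP at 148 ± 3.9 CPM and NRP1 at 354 ± 13.7 CPM (SD, n = 3 each). LmnB1_16 was above mCherry_4 by 0.31 on the log2 scale for HHIP (adjusted p = 0.0094) and by 0.59 for NRP1 (adjusted p = 6.6e-06).

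Those called lower with the smallest adjusted p among abundant genes were VSIR, TAGLN, CTIF, TP53INP2, MYL9, SLC25A4, SDC3 and CALCOCO1. VSIR, the immune checkpoint protein VISTA, was at 115, 93.3 and 91.7 CPM in mCherry_3 and 13.6, 14.6 and 12.9 CPM in LmnB1_16 (-2.87, SE 0.11, adjusted p = 2.47e-11). TP53INP2, a regulator of autophagy and transcription, was 78.65 to 84.55 CPM against 28.95 to 32.4 CPM (-1.41, SE 0.07, adjusted p = 4.46e-10), and SLC25A4, the mitochondrial ADP/ATP carrier, 103 to 111 against 47.5 to 51.3 CPM (-1.12, SE 0.06, adjusted p = 6.67e-10). LmnB1_16 was also below mCherry_4 for all 8 of these genes, by 0.41 (CALCOCO1) to 2.57 (TAGLN) on the log2 scale.

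Genes of cell division were higher throughout. All 35 mitosis genes tested, which encode spindle, checkpoint and chromosome proteins, were called higher in LmnB1_16 than in mCherry_3, 25 of them at least 2-fold, against 22.5% of all genes called higher. Their log2 fold changes ran from 0.69 (CDK1) to 1.58 (CDC20) with a median of 1.10. TOP2A (chr17:40388516-40417950, minus strand), the topoisomerase that untangles chromosomes, was at 271, 275 and 271 CPM in mCherry_3 and 633, 677 and 601 CPM in LmnB1_16 (1.23, SE 0.06, adjusted p = 1.04e-10). BUB1, a kinase of the spindle checkpoint, was at 59.4, 60.8 and 65.5 CPM against 160, 151 and 150 CPM (1.31, SE 0.06, adjusted p = 1.39e-10), and KIF20A, a kinesin of the late spindle, at 44.7, 53.5 and 52.99 CPM against 145, 146 and 141 CPM (1.51, SE 0.08, adjusted p = 4.44e-10). None of these groups overlapped. In RNA of whole cultures, more cells in a cycle phase and more RNA per cell cannot be told apart.

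The mitosis genes differed far less from the other clones. Against mCherry_4, LmnB1_16 had 4 of 35 higher and 0 lower with a median of 0.11, and against LmnB1_6 8 higher and 1 lower with a median of 0.04. The contrast of mCherry_4 over mCherry_3 called all 35 higher, with a median of 1.01. KIF20A, for one, was at 151 ± 11 CPM in mCherry_4 and 128 ± 9.6 CPM in LmnB1_6 (SD, n = 3 each), and neither clone was called different from LmnB1_16 (adjusted p = 0.58 and 0.11).

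DNA replication and G1/S genes followed with 35 of 39 higher and 1 lower, the cyclin E gene CCNE1 (-0.69), and a median of 0.62. MCM7, part of the helicase that opens replication origins, was at 179, 227 and 229 CPM against 380, 378 and 388 CPM (0.85, SE 0.08, adjusted p = 3.12e-07), and TYMS, thymidylate synthase, at 116 to 131 against 234 to 250 CPM (0.95, SE 0.07, adjusted p = 1.21e-08). Here LmnB1_16 was above mCherry_4 too for 12 of 39 genes and below it for 0, with a median of 0.20. Of 22 cohesin, condensin and CTCF genes 20 were higher and 1, the cohesin loader MAU2, lower (median 0.58). NCAPD2, a condensin subunit, was at 123.2 to 138.6 against 277 to 287 CPM (1.10, SE 0.06, adjusted p = 4.46e-10), and was at 259 ± 8.8 CPM in mCherry_4 (SD, n = 3).

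**Figure D4:**
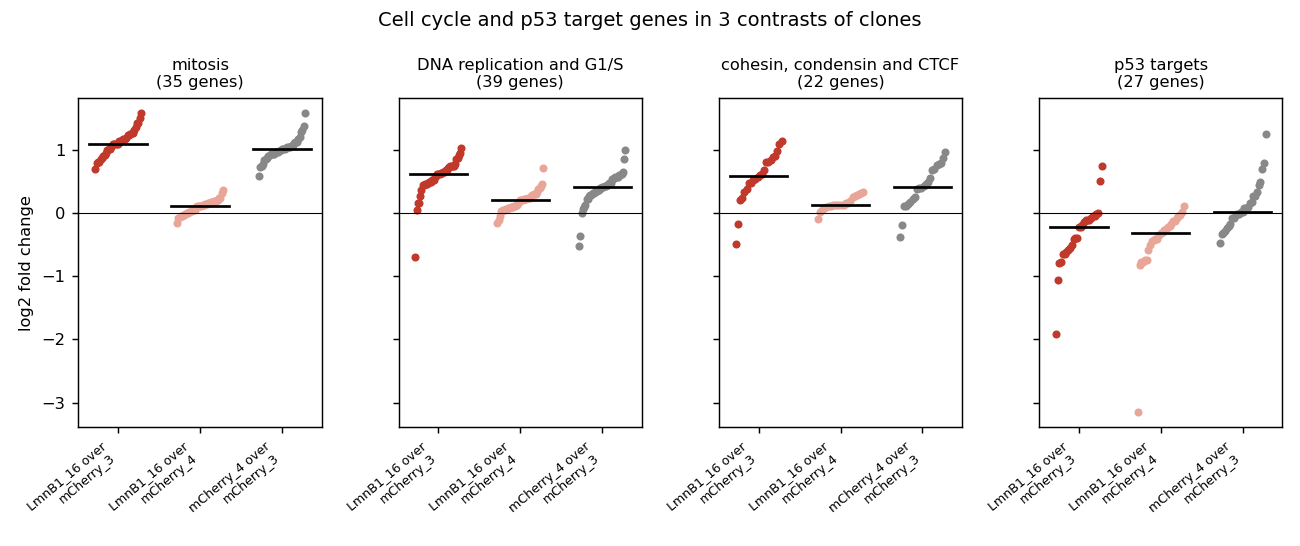
Each point is a gene of one list, ordered by its log2 fold change (y axis) within each of 3 contrasts, and black lines mark the medians. Mitosis genes had medians of 1.10 for LmnB1_16 over mCherry_3, 0.11 over mCherry_4, and 1.01 for mCherry_4 over mCherry_3, while p53 targets had medians of -0.22, -0.31 and 0.01.

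Promoters of these lists differ in the short motifs that cell cycle factors are known to bind, and members that moved together are shown with theirs. Searched on both strands of the 250 bases before each RefSeq gene start (GRCh38.p14), TTTGAA, the core of the cell cycle homology region, occurred in 16 of 29 matched mitosis promoters (55.2%), 1 of 34 replication promoters (2.94%) and 8.49% of 10321 promoters of tested protein-coding genes. CCAAT, the box bound by NF-Y, occurred in 75.9%, 55.9% and 35.4% of these sets, and TTTGGCGC or TTTCCCGC, forms of the E2F site, in 3.45%, 35.3% and 3.1%. These motifs share no bases in the sequences shown. A match describes letters in a window and was not tested as a binding site. Below are the 2 genes per list of smallest adjusted p whose stretch of at least 100 bases free of annotated exons held TTTGAA (mitosis) or an E2F form (replication), with the motifs in capitals. TOP2A (chr17:40417951-40418146, minus strand) and CDC20 (chr1:43358731-43358954, plus strand), an activator of the anaphase-promoting complex, each hold TTTGAA on both strands. MCM3 (chr6:52284882-52284992, minus strand), a helicase subunit, and POLA1 (chrX:24693668-24693917, plus strand), the catalytic subunit of DNA polymerase alpha, each hold 1 E2F form and 1 CCAAT.
TOP2A: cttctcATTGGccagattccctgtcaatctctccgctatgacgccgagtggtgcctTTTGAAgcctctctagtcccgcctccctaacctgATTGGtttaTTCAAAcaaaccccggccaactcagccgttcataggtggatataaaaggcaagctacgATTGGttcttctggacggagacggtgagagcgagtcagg
CDC20: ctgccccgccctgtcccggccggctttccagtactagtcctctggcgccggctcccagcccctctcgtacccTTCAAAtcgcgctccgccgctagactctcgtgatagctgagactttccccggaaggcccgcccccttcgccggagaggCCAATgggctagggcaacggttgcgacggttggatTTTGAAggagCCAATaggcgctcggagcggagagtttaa
MCM3: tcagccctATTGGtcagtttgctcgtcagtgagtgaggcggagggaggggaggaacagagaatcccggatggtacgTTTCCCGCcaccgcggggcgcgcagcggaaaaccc
POLA1: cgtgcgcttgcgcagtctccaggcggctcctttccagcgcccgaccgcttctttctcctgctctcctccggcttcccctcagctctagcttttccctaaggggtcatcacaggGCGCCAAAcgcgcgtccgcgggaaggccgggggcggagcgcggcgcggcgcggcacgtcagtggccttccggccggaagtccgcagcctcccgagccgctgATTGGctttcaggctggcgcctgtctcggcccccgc

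CDC20 was at 54.4, 70.1 and 65.98 CPM in mCherry_3 and 201, 176 and 192 CPM in LmnB1_16 (1.58, SE 0.09, adjusted p = 1.57e-09). MCM3 was at 156, 175 and 174 against 249, 273 and 264 CPM (0.64, SE 0.07, adjusted p = 2.47e-06), and POLA1 at 30.6, 35.9 and 34.6 against 60.3, 74.4 and 55.5 CPM (0.91, SE 0.11, adjusted p = 4.19e-06). For none of the 4 did the groups overlap.

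Of 25 genes for lamins and nuclear envelope proteins 10, LMNB1 among them, were higher and 3 lower, with a median of 0.09 that turned to -0.007 when scaled by library size alone. With LMNB1 included, the summed level of the list was 3179 to 3313 CPM in mCherry_3 and 6950 to 7545 CPM in LmnB1_16. TMPO, which encodes the LAP2 proteins that bind lamins and chromatin, was at 159, 179 and 183 CPM in mCherry_3 and 331, 365 and 326 CPM in LmnB1_16 (0.98, SE 0.08, adjusted p = 3.75e-08). LBR, the lamin B receptor, which tethers heterochromatin, was at 129 to 135 against 203 to 218 CPM (0.67, SE 0.06, adjusted p = 7.08e-08). The 3 lower genes were SYNE1 (-0.82), SUN1 (-0.22) and TMEM201 (-0.26), of which SYNE1 and SUN1 link the nucleus to the cytoskeleton. The count of lower genes was 1 with effective length offsets, 5 with library size alone and 5 without LmnB1_16 replicate 2. Against mCherry_4 the list had 3 higher and 3 lower.

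Nuclear pore genes were higher for 23 of 29 (15 on TPM), with a median of 0.38 and a summed level of 2426 to 2483 CPM against 2952 to 3329 CPM. NDC1, a membrane anchor of the pore, was at 69.2 to 73.4 CPM against 136 to 149 CPM (0.98, SE 0.07, adjusted p = 2e-08). The single lower gene was NUP210, a pore membrane protein, at 0.108 to 0.407 CPM in mCherry_3 and 0 counts in LmnB1_16, a call that was lost on TPM. NUP210 was at 97.3 ± 3.34 CPM in mCherry_4 and 0.521 ± 0.303 CPM in LmnB1_6 (SD, n = 3 each), so it was abundant in 1 clone of 4. Against mCherry_4, 3 pore genes were higher and 1, NUP210, lower.

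Chromatin enzymes moved gene by gene. Of 15 DNA methylation genes 9 were higher (5 on TPM) and 2 lower (median 0.34). DNMT1, the maintenance methyltransferase, was at 217, 237 and 232 CPM against 365, 391 and 374 CPM (0.72, SE 0.06, adjusted p = 4.28e-08), and its partner UHRF1 at 160 to 183 against 277 to 281 CPM (0.68, SE 0.06, adjusted p = 9.76e-08), while DNMT3A, a de novo methyltransferase, was at 25.6 to 32.5 against 14.2 to 16.5 CPM (-0.91, SE 0.12, adjusted p = 1.24e-05). Polycomb genes had 10 higher (6 on TPM) and 5 lower of 27, with EZH2, the H3K27 methyltransferase, at 42.6 to 47.5 against 68.2 to 77.95 CPM (0.71) and CBX7, a reader of that mark, at 13.4 to 14.9 against 6.59 to 7.62 CPM (-0.98). The H3K9 methylation and HP1 list had 6 higher and 3 lower (5 with library size alone) of 20 (45% called), close to the share of all tested genes (44.4%). KDM4B, an H3K9 demethylase, was lower (58.9 to 61.7 against 36.9 to 40.6 CPM, log2 fold change -0.65, SE 0.06, adjusted p = 2.52e-07). Of 18 histone genes 6 were higher, with the largest difference in the variant gene H2AZ1 (0.76), and 6 lower, with the largest in H4C15 (-2.33) and, by adjusted p, in H2AC6 (-1.44). Messages of replication-dependent histones are largely without poly(A) tails, and their near-identical copies share reads, so their values are uncertain.

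Most called targets of p53 were lower in LmnB1_16. Of 27 tested 14 were lower and 2, PMAIP1 and PLK2, higher, against 22% of all genes called lower, with a median of -0.22. CDKN1A, which encodes the CDK inhibitor p21, was at 363, 301 and 280 CPM in mCherry_3 and 174, 163 and 214 CPM in LmnB1_16 (-0.78, SE 0.14, adjusted p = 0.000244). ZMAT3, an RNA-binding target of p53, was at 143, 101 and 113 CPM against 65.1, 80.97 and 59.9 CPM (-0.79, SE 0.13, adjusted p = 8.81e-05), and TP53INP1, a stress protein, at 25.3 to 31.6 against 11.5 to 15.98 CPM (-1.07, SE 0.12, adjusted p = 2.98e-06).

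The p53 targets were more often lower than higher against each of the other clones too. Against mCherry_4 13 of 27 were lower and 0 higher (median -0.31), and against LmnB1_6 15 were lower and 2 higher (median -0.39), while the mCherry clones differed by a median of 0.01. ZMAT3 was at 117 ± 8.3 CPM in mCherry_4 and 107 ± 13.5 CPM in LmnB1_6 (SD, n = 3 each), both above LmnB1_16 (adjusted p = 0.00039 and 0.00068). CDKN1A was at 309 ± 9.9 CPM in mCherry_4 (adjusted p = 0.0011) and 224 ± 54 CPM in LmnB1_6 (adjusted p = 0.12, not called), with log2 differences of -0.75 and -0.29. Among D cyclins, CDK inhibitors and RB family genes 8 of 14 were higher, with CDK4 at 109 to 131 against 168 to 200 CPM (0.61), and 2 were lower, CDKN1A and CCND3. The count of higher genes fell to 4 with library size alone or effective length offsets, 2 on TPM, 5 without mCherry_3 replicate 1 or LmnB1_16 replicate 1 and 4 without LmnB1_16 replicate 3.

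Several contractile genes were lower in LmnB1_16. Of 30 genes for the actin cytoskeleton and contractility 13 were lower and 11 higher (7 on TPM) than in mCherry_3 (median -0.07), and the 7 that were at least 2-fold lower were ACTG2, TAGLN, FHL1, MYL9, CNN1, ACTA2 and FLNC, most of them markers of smooth muscle and myofibroblast contractility. TAGLN (chr11:117199321-117204782), the actin-bundling protein SM22, was at 461, 427 and 420 CPM in mCherry_3 and 85, 84.95 and 110 CPM in LmnB1_16 (-2.22, SE 0.09, adjusted p = 3.05e-11). MYL9, a regulatory myosin light chain, was at 366, 317 and 304 CPM against 105, 103 and 113 CPM (-1.62, SE 0.08, adjusted p = 5.07e-10), and FHL1, a LIM protein of the cytoskeleton, at 35.8, 34.8 and 36.4 CPM against 9.59, 10.03 and 9.64 CPM (-1.87, SE 0.07, adjusted p = 2.6e-11). The higher genes were led by ZNF185 and included TPM4, ACTN4, MYH10 and FLNA, proteins of non-muscle actin structures.

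Against mCherry_4 the list was lower for 23 of 30 and higher for 2 (median -0.56), and mCherry_4 itself was above mCherry_3 for 20 genes and below it for 5. TAGLN was at 555 ± 22 CPM in mCherry_4 and 431 ± 30 CPM in LmnB1_6 (SD, n = 3 each), MYL9 at 381 ± 25 and 191 ± 20 CPM, and LmnB1_16 was below both clones for each gene, with log2 differences of -2.57 and -2.20 for TAGLN and -1.84 and -0.84 for MYL9. YAP/TEAD targets, which respond to cell tension, had 7 higher and 10 lower (6 without mCherry_3 replicate 1) of 27 (median -0.06), and 13 lower and 0 higher against mCherry_4 (median -0.23). CCN1, a secreted matricellular target, was at 1336, 1483 and 1469 CPM against 1035, 896 and 997 CPM (-0.55, SE 0.08, adjusted p = 2.63e-05), and FJX1 was among the higher ones (0.73, SE 0.08, adjusted p = 1.41e-06). Of the muscle markers, MYH7, MYOD1 and MYOG had 0 counts, and the summed level of the list was 126 to 152 CPM in mCherry_3 and 80.7 to 94.5 CPM in LmnB1_16, nearly all of it TNNT1. The part of such cells in the contractile difference was not tested.

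**Figure D5:**
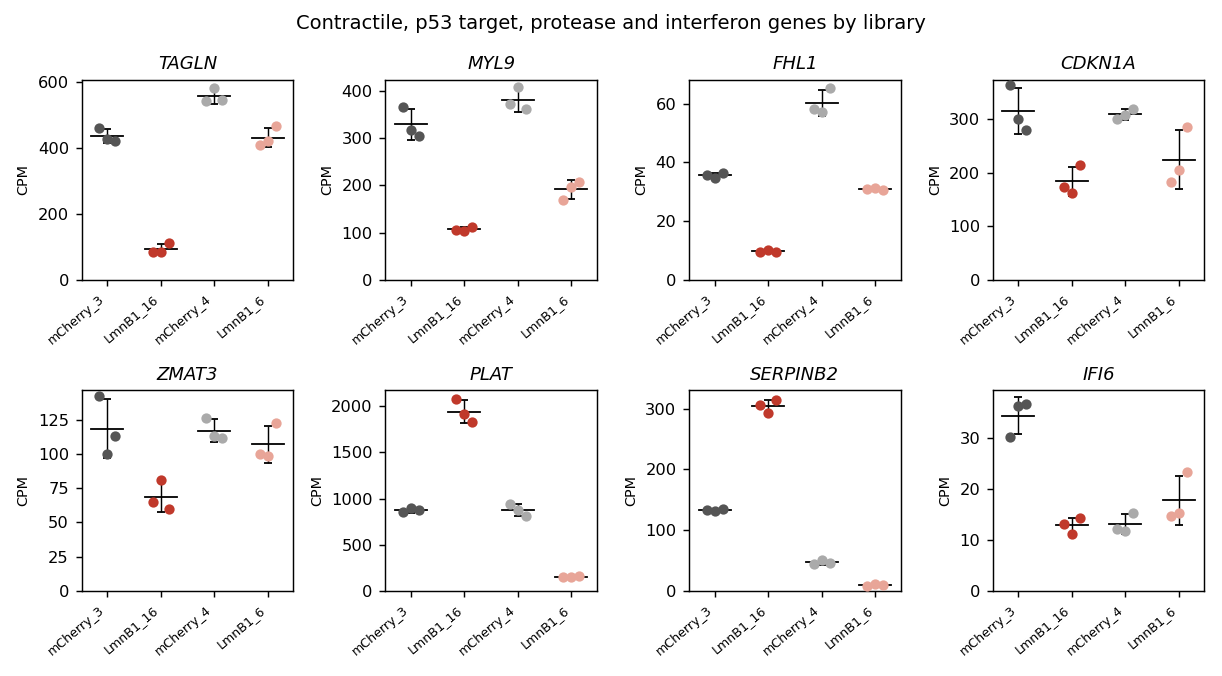
CPM of 8 genes in each of the 12 libraries (points), with the mean (line) and SD (bar) of each clone. TAGLN, MYL9, FHL1, CDKN1A and ZMAT3 were lower in LmnB1_16 than in mCherry_3, PLAT and SERPINB2 were higher, and IFI6 was highest in mCherry_3.

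Of 17 genes of the plasminogen, MMP and TIMP list, which holds proteases and their inhibitors, 11 were higher and 2 lower (median 0.48), with 3 at least 2-fold higher. The count of lower genes was 0 to 4 across the alternatives, 4 on TPM and 0 without mCherry_3 replicate 1. The largest difference was that of TIMP4, a metalloprotease inhibitor, at 0.074 to 0.837 against 1.92 to 2.49 CPM (2.67, SE 0.57, adjusted p = 0.00118). PLAT, tissue plasminogen activator, was at 848, 899 and 872 CPM in mCherry_3 and 2077, 1922 and 1832 CPM in LmnB1_16 (1.15, SE 0.06, adjusted p = 7.43e-10). SERPINB2, an inhibitor of plasminogen activators, was at 132, 131 and 135 CPM against 306, 292 and 313 CPM (1.20, SE 0.07, adjusted p = 3.09e-09), and MMP14, a membrane-bound collagenase, at 579 to 696 against 1204 to 1301 CPM (0.94, SE 0.07, adjusted p = 1.78e-08).

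LmnB1_16 had the highest PLAT and SERPINB2 of the 4 clones. PLAT was at 876 ± 61 CPM in mCherry_4 and 149 ± 6.04 CPM in LmnB1_6 (SD, n = 3 each), and SERPINB2 at 46.7 ± 3.93 and 8.81 ± 1.42 CPM. The lamin B1 clones thus lay on opposite sides of mCherry_3 for both genes.

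Matrix genes changed in both directions by gene. Collagens and fibronectin had 11 higher (7 with library size alone, 5 on TPM) and 7 lower of 21. FN1, fibronectin, was at 3040, 2912 and 2976 CPM against 5744, 6666 and 6082 CPM (1.05, SE 0.07, adjusted p = 6.9e-09), while COL11A1, a fibrillar collagen chain, was at 22.7, 16.3 and 14.2 CPM against 0.292, 0.59 and 0.843 CPM (-4.89, SE 0.31, adjusted p = 3.54e-09). Both differences were also those of mCherry_4 from mCherry_3, with FN1 at 5548 ± 549 CPM and COL11A1 at 0.228 ± 0.083 CPM in mCherry_4 (SD, n = 3 each). Proteoglycans and matricellular genes had 12 higher and 3 lower of 21 (median 0.37), among them VCAN, the large proteoglycan versican, at 214, 174 and 186 CPM against 1070, 1385 and 974 CPM (2.58, SE 0.12, adjusted p = 1.48e-10).

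Laminin chains differed in both directions. Of 13 tested basement membrane genes 6 were higher and 3, LAMA5, HSPG2 and LAMB2, lower. LAMA5, the laminin alpha 5 chain, was at 63.2, 65.6 and 64.8 CPM in mCherry_3 and 24.1, 21.1 and 20.1 CPM in LmnB1_16 (-1.57, SE 0.09, adjusted p = 1.06e-09), whereas LAMA4, the alpha 4 chain, was at 33.02, 22.6 and 24.3 CPM against 84.8, 84.5 and 84.3 CPM (1.67, SE 0.12, adjusted p = 1.92e-08). LAMB3, a chain of laminin 332, was higher as well (50.3 to 64.3 against 160 to 175 CPM; 1.51, SE 0.10, adjusted p = 7.23e-09). LmnB1_16 differed from mCherry_4 in the same directions, by -1.41 for LAMA5, 1.13 for LAMA4 and 1.10 for LAMB3. Integrins had 8 higher and 3 lower of 15. ITGA2, a collagen-binding integrin, was at 25 to 28.7 against 79.8 to 90.6 CPM (1.63, SE 0.09, adjusted p = 1.1e-09), and ITGB4, which pairs with laminin 332 in hemidesmosomes, at 13.1 to 15.8 against 2.26 to 2.86 CPM (-2.48, SE 0.15, adjusted p = 2.81e-09).

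In the list of 25 junction and epithelial to mesenchymal genes 11 were higher and 6 lower. The largest differences were those of CDH6 and OCLN. CDH6, cadherin 6, was at 8.03, 7.27 and 6.18 CPM in mCherry_3 and 53.96, 73.9 and 62.3 CPM in LmnB1_16 (3.15, SE 0.13, adjusted p = 3.4e-11). OCLN, the tight junction protein occludin, was at 12, 9.75 and 8.62 CPM against 3.99, 4.23 and 4.29 CPM (-1.28, SE 0.17, adjusted p = 1.37e-05). The intermediate filament gene VIM was at 3402 to 3504 against 5480 to 5597 CPM (0.69, SE 0.06, adjusted p = 1.27e-07) and the keratin gene KRT8 at 578 to 612 against 362 to 386 CPM (-0.67, SE 0.05, adjusted p = 6.27e-08). VIM and KRT8 were at 6380 ± 321 and 400.5 ± 19.4 CPM in mCherry_4 (SD, n = 3 each), on the side of LmnB1_16.

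Secreted cytokine and senescence factor genes had 10 higher and 4 lower of 21 tested (median 0.57, and 0.25 on the log2(TPM + 1) scale). With a minimum count of 50 the list had 5 higher and a median of 0.22. VEGFA, the angiogenic growth factor, was at 55.4, 59.8 and 60.8 CPM in mCherry_3 and 207, 153 and 163 CPM in LmnB1_16 (1.57, SE 0.12, adjusted p = 2.35e-08), and VEGFC, its lymphatic relative, at 21.1 to 24.2 against 60.3 to 74.96 CPM (1.59, SE 0.08, adjusted p = 5.07e-10). CXCL8, the chemokine interleukin 8, was at 1.71, 3.08 and 2.41 CPM against 14.7, 14.8 and 28.8 CPM (3.02, SE 0.31, adjusted p = 8.07e-07), with 1 LmnB1_16 library well above the others. LIF, a cytokine of the interleukin 6 family, was at 60.5 to 82.96 against 148 to 187 CPM (1.19). The lower genes included IGFBP5, HBEGF and IGFBP6.

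Wnt and Notch genes had 15 higher and 2, WNT5B and JAG2, lower of 28 (median 0.42, and 0.21 on the log2(TPM + 1) scale). SFRP1, a secreted Wnt antagonist, was at 336, 270 and 269 CPM against 1229, 1267 and 1224 CPM (2.09, SE 0.08, adjusted p = 1.97e-11), and JAG1, a Notch ligand, at 14.1 to 16.3 against 47.8 to 58.6 CPM (1.81, SE 0.12, adjusted p = 1.11e-08). The list had 18 genes higher in mCherry_4 than in mCherry_3 and was split 4 to 4 between LmnB1_16 and mCherry_4. Growth factor receptors and ERK feedback genes had 15 higher and 4 lower of 28. SPRY1, an inhibitor of ERK signalling, was at 1.83 to 2.08 against 7.87 to 8.39 CPM (2.07, SE 0.21, adjusted p = 7.73e-07), and ERBB3, a neuregulin receptor, at 23.1, 20.5 and 19.5 CPM against 1.36, 1.28 and 2.38 CPM (-3.61, SE 0.19, adjusted p = 7.43e-10).

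Axon guidance genes had 11 higher and 5 lower (3 with effective length offsets or on TPM) of 25, and the higher ones held both receptor parts and ligands. Beside PLXNA4 and NRP1 above, NRP2 was higher (1.23), and SEMA3A, a ligand of the neuropilin and plexin complex, was at 42.3, 37.5 and 40.2 CPM against 99.3, 119 and 99.95 CPM (1.41, SE 0.08, adjusted p = 1.06e-09). Among TGF-beta and BMP genes 7 of 22 were higher and 4 lower, with 1 lower under effective length offsets and 2 in the 6 libraries alone or without mCherry_3 replicate 1, LmnB1_16 replicate 1 or LmnB1_16 replicate 3. FST, follistatin, an activin trap, was at 11.6, 15.4 and 13.6 CPM against 63.6, 53.2 and 61 CPM (2.13, SE 0.11, adjusted p = 3.52e-10), INHBA, the activin A subunit, at 81.1 to 84.9 against 165 to 196 CPM (1.08, SE 0.07, adjusted p = 5.15e-09), and BMP4 at 9.065 to 13.7 against 27.7 to 35.03 CPM (1.49, SE 0.12, adjusted p = 7.85e-08).

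Interferon-stimulated genes were lower for 17 of 32 and higher for 4, OAS3, IFI44L, IRF1 and IFIT3 (median -0.40). The call of IRF1 was lost with effective length offsets and on TPM. IFI6, an antiviral membrane protein, was at 30.2, 36.1 and 36.7 CPM in mCherry_3 and 13.1, 11.2 and 14.1 CPM in LmnB1_16 (-1.42, SE 0.16, adjusted p = 2.57e-06). ISG15, a ubiquitin-like modifier, was at 21.8, 27.1 and 24.1 CPM against 13.1, 11.4 and 12.2 CPM (-0.99, SE 0.09, adjusted p = 3.98e-07), and OAS3, a double-stranded RNA sensor, went the other way, at 44.8 to 57.8 against 82.6 to 94.4 CPM (0.72, SE 0.08, adjusted p = 4.05e-06).

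The direction of this list depended on the control clone. Against mCherry_4 it had 11 higher and 3 lower in LmnB1_16 (median 0.19), and mCherry_4 was itself lower than mCherry_3 for 21 genes (median -0.60). MHC class I and antigen processing genes had 5 higher and 3 lower of 18 against mCherry_3 (44.4% called), the same share as all tested genes (44.4%). The lower count was 1 without mCherry_3 replicate 2 or 3 and 5 with library size alone. Against LmnB1_6 the list had 17 higher and 0 lower (median 0.67). PSMB9, an immunoproteasome subunit, was at 6.35 to 6.85 CPM in mCherry_3, 11.01 to 15.2 CPM in LmnB1_16 and 2.55 ± 0.44 CPM in LmnB1_6 (SD, n = 3).

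The unfolded protein and ATF4 list had 15 higher and 6 lower (3 without LmnB1_16 replicate 2) of 28 (median 0.45, and 0.30 on the log2(TPM + 1) scale), and its amino acid transporters differed in both directions. PDIA4, a chaperone of the endoplasmic reticulum, was at 174, 180 and 177 CPM against 343, 335 and 357 CPM (0.96, SE 0.05, adjusted p = 1.06e-09), and the cystine importer SLC7A11 at 18.4 to 20.2 against 63.3 to 78.4 CPM (1.82, SE 0.09, adjusted p = 1.93e-10). The paired subunits of the large amino acid transporter were lower, SLC7A5 at 1607, 1425 and 1471 CPM against 510, 525 and 431 CPM (-1.62, SE 0.09, adjusted p = 1.7e-09) and SLC3A2 at 351 to 375 against 160 to 202 CPM (-0.99, SE 0.07, adjusted p = 2.11e-08). SLC7A5 was at 444 ± 52 CPM in mCherry_4 and 403 ± 41 CPM in LmnB1_6 (SD, n = 3 each), so mCherry_3 was the clone apart. Of 15 heat shock genes 6, mostly cytosolic and mitochondrial chaperones such as HSPD1 (0.57), were higher, and 3, HSPB8, CRYAB and DNAJB4, lower (6 with library size alone).

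Nuclear genes of the respiratory chain were lower for 16 of 35 and higher for 3, UQCRC1, ATP5MC1 and NDUFB10 (median -0.16). With library size alone 23 were lower and 0 higher, and on TPM 21 and 0 (median -0.26 each). The lower count was 10 in the 6 libraries alone or without mCherry_3 replicate 3, and 9 without mCherry_3 replicate 2 or LmnB1_16 replicate 2. The higher count was 1 without mCherry_3 replicate 1 or 3 or LmnB1_16 replicate 1 or 3. SDHC, a subunit of succinate dehydrogenase, had the largest difference, at 85.2 to 87 against 54.9 to 66.6 CPM (-0.48, SE 0.07, adjusted p = 2.98e-05). NDUFV1, a subunit of complex I, had the smallest adjusted p, at 129 to 135 against 90.2 to 100.4 CPM (-0.45, SE 0.06, adjusted p = 6.21e-06). Against mCherry_4 the list's median was -0.08. Of 13 genes encoded in the mitochondrial genome 0 were called by edgeR, 0 had an unadjusted p under 0.05, and DESeq2 and limma called 0, while scaling by library size alone called 2 lower. Higher calls numbered 3 with no low-count filter, 1 with a replicate block, 2 without mCherry_3 replicate 1 and 4 without LmnB1_16 replicate 3. MT-CO1 was at 6328 to 7150 CPM in mCherry_3 and 6909 to 7680 CPM in LmnB1_16 (0.12, SE 0.06, adjusted p = 0.111). Glycolysis and hypoxia genes had 11 higher (7 on TPM or without LmnB1_16 replicate 1) and 1, PFKM, lower of 28, and the PFKM call was lost with effective length offsets and on TPM. At least 2-fold higher were 2 genes, VEGFA (described above) and CA9, a carbonic anhydrase, at 0.495, 0.681 and 0.925 CPM against 2.82, 2.46 and 3.08 CPM (1.99, SE 0.29, adjusted p = 4.36e-05). LDHA, lactate dehydrogenase, was at 836 to 866 against 1252 to 1350 CPM (0.61, SE 0.06, adjusted p = 5.5e-07). Ribosomal protein genes had 15 higher and 0 lower of 37 (median 0.15). The higher count was 6 with library size alone or on TPM, 7 without LmnB1_16 replicate 1, 9 without mCherry_3 replicate 1 or LmnB1_16 replicate 3, and 32 without LmnB1_16 replicate 2.

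Lysosomal genes were lower for 17 of 32 and higher for 7 (4 with library size alone or on TPM), with a median of -0.17. CTSH, a cathepsin, was at 33.4, 32.4 and 32.5 CPM against 8.47, 7.57 and 6.78 CPM (-2.11, SE 0.10, adjusted p = 1.2e-10), and CTSL, another cathepsin, at 33.9 to 38.5 against 63.6 to 82.1 CPM (1.06, SE 0.09, adjusted p = 1.65e-07). Antioxidant and detoxification genes had 11 higher and 10 lower of 26. NQO1, a quinone reductase, was at 127 to 139 against 218 to 238 CPM (0.81, SE 0.06, adjusted p = 2.21e-08), and CYP2J2, an arachidonic acid epoxygenase, at 4.12 to 5.44 against 0.049 to 0.073 CPM (-6.20, SE 0.42, adjusted p = 9.2e-09). Genes of cholesterol and fatty acid synthesis were split 9 to 9 of 29 (5 lower without LmnB1_16 replicate 1), with FADS1 (0.86) and SCD (1.36), fatty acid desaturases, higher and the sterol reductase TM7SF2 lower (-1.05).

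HOX genes, which set position along the body axis, were lower for 7 of the 8 tested, all in the HOXB cluster on chromosome 17 (median -2.95). In limma on log2(TPM + 1), a scale that shrinks differences of low genes, 6 were lower and the median was -0.79. HOXB9 (chr17:48621159-48626356, minus strand) was at 9.06, 6.81 and 7.29 CPM in mCherry_3 and 0.146, 0.148 and 0.293 CPM in LmnB1_16 (-5.20, SE 0.25, adjusted p = 2.14e-10). HOXB3 was at 5.45 to 6.48 against 2.53 to 2.92 CPM (-1.07, SE 0.12, adjusted p = 2.55e-06). LmnB1_6 lay far above both clones, at 68.9 ± 3.65 CPM for HOXB9 and 103 ± 3.58 CPM for HOXB3 (SD, n = 3 each), and mCherry_4 was at 1.46 ± 0.393 and 1.8 ± 0.309 CPM. The annotated genes of this cluster overlap, so their counts are not fully separate.

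Clustered protocadherins and imprinted genes were called in both directions. Clustered protocadherins had 6 higher and 7 lower of 28 (46.4% called), close to the share of all tested genes (44.4%). Their median of -0.19 was 0.03 in the 6 libraries alone and 0.19 with a minimum count of 50. These genes overlap in the annotation and can share reads, so single values are uncertain. Imprinted genes had 5 higher, among them MEST at 90.5 to 95.3 against 195 to 222 CPM (1.13, SE 0.08, adjusted p = 1.22e-08) and GRB10 (1.02), and 6 lower, among them BLCAP (-0.72), of 18. Of these calls 4 were at least 2-fold higher and 2 at least 2-fold lower. The log2 fold changes of the tested imprinted genes ran from -6.49 to 7.87. Several markers of other cell types were detected, and some were called. The neuronal and glial list was summed at 164 to 170 CPM in mCherry_3 and 301 to 331 CPM in LmnB1_16, most of it TUBB3 (149 to 157 against 255 to 285 CPM), with NEFL, NEFM and ELAVL4 at 0 counts. Of 7 leukocyte markers 2 were tested. CD68, a lysosomal protein of macrophages found in other cells too, had 11822 counts over the 6 libraries and was not called (77.1 to 87 against 70.2 to 76.8 CPM, adjusted p = 0.0599), while CSF1R, the receptor of macrophage colony-stimulating factor, was higher (1.03 to 1.55 against 3.6 to 4.4 CPM; 1.58, SE 0.23, adjusted p = 4.35e-05). The summed level of that list was 78.1 to 88.6 CPM in mCherry_3 and 74.6 to 80.4 CPM in LmnB1_16, with the T cell marker CD3E at 0 counts and the general marker PTPRC at 18. Of 7 endothelial markers 4 were tested. TIE1, an endothelial receptor kinase, was lower (13.8 to 15.7 against 6.96 to 7.67 CPM; -1.06, SE 0.13, adjusted p = 8.24e-06), and KDR, a VEGF receptor, was higher (0.251 to 0.533 against 0.827 to 1.25 CPM; 1.40), a call lost under 6 alternatives. PECAM1, CDH5 and VWF had 15, 12 and 50 counts over the 6 libraries, and the summed level was 15.6 to 18.7 CPM against 9.38 to 10.8 CPM. The part of such cells in the differences was not tested. Of the fibroblast markers 3 of 7, PDGFRA, FAP and COL1A1 (whose call was lost under at least 1 alternative), were higher, and the list's summed level overlapped between the clones (392.3 to 401.6 CPM in mCherry_3, 391 to 434 CPM in LmnB1_16). Of the pigment epithelium markers 6 of 14 were lower, among them MITF, a master factor of pigment cells, at 65.3, 54.6 and 56.02 against 28.7, 34.1 and 31.03 CPM (-0.91, SE 0.10, adjusted p = 1.28e-06), and 2, RDH10 and OTX2, higher. The OTX2 call was lost under 13 of 16 alternatives.

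No chromosome as a whole shifted far. Median log2 fold changes per nuclear chromosome lay between -0.047 (chromosome 1) and 0.076 (chromosome 21). Among 296 runs of 50 neighbouring tested genes the medians lay between -0.33 (chr7:139341360-149126346) and 0.35 (chr9:38392664-70175888), and no test was made of these runs.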

How the data were processed

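The series holds mRNA libraries of 4 clones of hTERT RPE-1, 3 per clone. STAR, Salmon and DESeq2 (no versions) and the build GRCh38 are named in the submitters' processing notes. The authors deposited gene-level estimated counts of fragments, not normalized, and TPM, which are scaled by effective length, per the file headers. Effective lengths differ between libraries, so TPM served only as an alternative. Read length, strand and annotation release were not given in the sources used here. Whether reads of genes that overlap on opposite strands were separated is therefore not known. Of 60708 gene identifiers 58440 matched GENCODE 29, which gave positions, and 60696 had a symbol. Promoters come from RefSeq (GRCh38.p14).

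Estimated counts were rounded to whole numbers. All 12 libraries were fitted with clone as the group in edgeR 4.0.16 (R 4.3.3; glmQLFit, glmQLFTest, TMM factors 0.948 to 1.06), after filterByExpr (minimum count 10, total 15) had left 15388 genes with at least 99.9% of each library's counts. The biological coefficient of variation within clones was 0.084. A standard error is the fold change (log2) divided by the root of F. Bounds for genes with 0 counts use 3 counts over the libraries of a clone and cover counting error only. On simulated counts for this contrast and 15388 genes, 68.7% of 67 genes changed 1.5-fold, 71.6% of 67 changed 2-fold and 87.9% of 66 changed 4-fold were recovered, with 10 false calls. No other genes were changed in the simulation, a far smaller share than the 44.4% called in the data. Its rates of recovery and false calls need not hold for the data.

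The clones compared and the 44 gene lists were chosen with earlier results of these data known. Named genes are LMNB1, the 12 largest rises and 12 largest falls of protein-coding genes (mean of at least 1 CPM, groups that do not overlap), the 8 of smallest adjusted p each way at a mean of at least 50 CPM, up to 4 called members of each list (or its 2 most abundant, with no call), and up to 6 genes each way near 0 in a clone. Genes named beside small counts, at the ends of ranges, as lamins, as abundant markers or as promoter examples were chosen after their values were seen. Of the genes the rule takes, not all are described. Alternatives were other scalings, filters, tools (DESeq2 1.42.0, limma 3.58.1 on log2(TPM + 1)), only the 6 libraries, a replicate block, an adjusted p of 0.01 and leaving out each library.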

Additional observations from a re-analysis of the deposited data

Results flagged for a closer look

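The clones that carry the lamin B1 fusion differed from mCherry_3 in opposite directions for 18 of the genes named, each called in both comparisons, and the contrast of LmnB1_16 with LmnB1_6 itself, given here as a log2 difference, was called for each (largest edgeR adjusted p 6.08e-06, for KDR). Both comparisons share the mCherry_3 libraries. LmnB1_16 was above LmnB1_6 for KDR by 7.74, SERPINB2 by 5.11, CXCL8 by 3.99, FST by 3.89, PLAT by 3.71, FZD8 by 2.91, VEGFA by 2.84, PTPRB by 2.66, PSMB9 by 2.37, LAMA4 by 2.13, VEGFC by 1.83 and FAP by 0.89. It was below LmnB1_6 by differences of -9.99 for ALPK2, -8.36 for HOXB9, -6.22 for HOXB6, -5.22 for HOXB3, -2.02 for COL18A1 and -0.87 for KDM4B. Since KDR had 0 counts in LmnB1_6 and ALPK2 had 2 in LmnB1_16, the size of their fitted differences depends on edgeR's prior count.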

How the results depend on the processing

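Across the alternatives 5478 (effective length offsets) to 7102 (library size only) genes were called at an adjusted p under 0.05. The number of tested genes was 15388 in the main setting and differed with the filter and libraries, from 12622 (minimum count 50) to 27464 (no low-count filter). No gene called under both the main setting and an alternative changed direction. Leaving out each library gave 5970 to 6532 calls, and an adjusted p under 0.01 gave 5068. In limma on log2(TPM + 1) 2097 genes were higher instead of 3455, and 651 changed at least 2-fold instead of 1388. The split of calls was 50.5% higher in the main setting, 36.2% with scaling by library size alone and 37.9% on TPM, and the cause was not tested. Replicate numbers did not pair the libraries (correlations of same-numbered deviations -0.0541, -0.0216 and 0.00594), and with a replicate block 6968 genes were called. The calls of 170 tested genes named in the text were followed through the alternatives. RDH5, MERTK, PMEL, LRAT, BEST1 and SLC16A3, named above for their counts alone, were not followed. Of the 170 genes 164 were called, 152 of them kept their call under every alternative that gave a value, and 12 lost it under at least 1. By count of alternatives these were OTX2 and NDUFB10 (13 of 16 each), ATP5MC1 (9), KDR (6 of 15), COL1A1 (5), TMEM201 (4), IRF1, PFKM and UQCRC1 (2 each), and LMNA, NUP210 and SUN1 (1 each). Leaving out single libraries took the call from OTX2 (each of the 6, log2 fold changes 0.25 to 0.32 against 0.30), ATP5MC1 (each but LmnB1_16 replicate 2, 0.20 to 0.30 against 0.28), NDUFB10 (replicates 1 and 3 of both clones, 0.12 to 0.15 against 0.16), TMEM201 (mCherry_3 replicates 2 and 3 and LmnB1_16 replicate 1, -0.18 to -0.24 against -0.26), COL1A1 (mCherry_3 replicate 1 and LmnB1_16 replicate 3, 0.41 and 0.34 against 0.45) and KDR (mCherry_3 replicate 2 and LmnB1_16 replicates 2 and 3, 1.15 to 1.34 against 1.40). Of 1072 list and chromosome medians over the alternatives 230 moved by more than the SD over the LmnB1_16 libraries. Most medians moved under 2 of the settings, 57 of 67 with library size alone and 53 of 67 on the log2(TPM + 1) scale. With library size alone the medians printed above shifted for respiratory chain genes (-0.16 to -0.26), lysosomal genes (-0.17 to -0.27), YAP/TEAD targets (-0.06 to -0.16), actin genes (-0.07 to -0.17) and ribosomal protein genes (0.15 to 0.06). On the log2(TPM + 1) scale the HOX median was -0.79. The cause of these shifts was not tested. Low counts limit genes under about 1 CPM, and 3 libraries of 1 clone give no measure of the spread between clones.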
